A study of Homo sapiens with 6 samples.

Results

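The genes described here encode the subunits, caps, inhibitor and assembly chaperones of the proteasome, chosen by name: every row of the count tables whose symbol starts with PSMA, PSMB, PSMC, PSMD, PSME, PSMF or PSMG and ends in a number. The rule took 48 of the 41471 gene rows of the knockdown experiment and 47 of the 34157 rows of the Reb experiment, where the row of PSMA8 was not analysed here. After genes with a mean under 1 CPM (counts scaled to a common library size) over the 3 libraries of an experiment were set aside, 46 members stayed in each experiment, among 15295 and 15655 genes. The members set aside were PSMA8 and PSMB11, the testis and thymus forms of core subunits. PSMB11 had 0 counts in every knockdown library, and so did PSMA8. PSMB11 had 4 counts in the DMSO library, 0 at 1 μM and 4 at 5 μM. The rule itself uses names and no measured value, but this gene family was taken up with earlier results of these data known.

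All 6 libraries were made from MDA-MB-231, an established human cell line of triple-negative breast cancer, a subtype that lacks the estrogen and progesterone receptors and ERBB2 amplification. In the knockdown experiment, cells carried a lentiviral short hairpin RNA, either a scramble control (scramble-shRNA) or 1 of 2 hairpins against CDK16 (CDK16-sh1, CDK16-sh2). According to the study's methods the hairpin vector also expressed green fluorescent protein, and transduced cells were sorted on it, so that each line is a sorted pool and the scramble line carries the vector as well. In the Reb experiment, cells were kept for 48 h in the solvent DMSO or in rebastinib (Reb), a kinase inhibitor that the study used against CDK16, at 1 μM or 5 μM. Each group was 1 library, so a difference between 2 libraries has no replicate check, and the 95% intervals printed here are exact binomial (Clopper-Pearson) intervals that cover counting error only. The hairpins share the scramble library and the doses share the DMSO library.

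The proteasome is the protease that degrades proteins marked with ubiquitin. Its core particle is a barrel with outer rings of alpha subunits, which gate the channel, and inner rings of beta subunits, of which PSMB5, PSMB6 and PSMB7 carry the proteolytic sites. A regulatory particle caps the barrel. Its base holds a ring of ATPases (PSMC genes) that unfold the substrate and large scaffold and receptor subunits, and its lid holds the deubiquitinase PSMD14. In cells exposed to interferon, PSMB8, PSMB9 and PSMB10 replace the catalytic subunits and give the immunoproteasome, which cuts peptides suited to presentation on MHC class I. The transcription factor NFE2L1 is known to raise most subunit genes together when proteasome activity falls short.

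The libraries held between 25838443 and 50303269 counts. Mitochondrial transcripts took 7.19% to 16.4% of the counts, with the upper end in the CDK16-sh2 library (16.2%) and the Reb 5 μM library (16.4%). CDK16 had 3223 counts in the scramble library, 1360 with CDK16-sh1 and 846 with CDK16-sh2, so both hairpin libraries were low in their target (log2 change -1.52 and -1.82). Of the markers of the line, VIM, a mesenchymal filament, was abundant, at 34429 to 137281 counts per library. ESR1 and PGR, the hormone receptors, had 0 to 8 counts in every library but Reb 1 μM, where they had 12 and 16. CDH1, an epithelial cadherin, had 53 counts at 1 μM and 4 to 7 elsewhere, and PTPRC, a marker of blood cells, had 35 counts at 1 μM and 0 to 3 elsewhere. ESR1, PGR, CDH1 and PTPRC were thus each highest in the Reb 1 μM library, and their part in the results at 1 μM was not tested. EPCAM, an epithelial adhesion gene, had 240, 341 and 408 counts in DMSO, 1 μM and 5 μM and 193, 125 and 209 in scramble, CDK16-sh1 and CDK16-sh2. PECAM1, an endothelial marker, had 154, 53 and 4 counts in the Reb libraries and 44, 85 and 13 in the knockdown libraries.

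The members took a small and even share of each library, between 0.60% and 0.794% of all counts. Scaled by TMM (trimmed mean of M values, edgeR's factor for library composition), they summed to 6566 CPM in scramble, 7688 CPM with CDK16-sh1 and 7414 CPM with CDK16-sh2. In the Reb experiment the sum was 5484 CPM in DMSO, 4998 CPM at 1 μM and 9207 CPM at 5 μM. PSMD2, a scaffold subunit of the base, made up much of the last value. It held 24.6% of the member counts in DMSO, 24.2% at 1 μM and 41.7% at 5 μM, against 10.4% to 15.4% in the knockdown libraries. Without PSMD2 the sums were 4136, 3787 and 5364 CPM in the Reb libraries. These sums depended on the TMM factor, which was 1.1593 in DMSO and 0.7184 at 5 μM. As a share of all counts, mitochondrial ones included, the members took 0.6358% in DMSO and 0.6615% at 5 μM. Without PSMD2 that share was 0.4795% in DMSO, 0.4547% at 1 μM and 0.3854% at 5 μM. The members other than PSMD2 were thus higher at 5 μM under TMM and lower as a share of counts.

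Levels per length (CPM per kb of exon) spread widely among the members. PSMA7, an alpha subunit, was the highest member in scramble (284 CPM per kb), with CDK16-sh1 (246) and with CDK16-sh2 (221). PSMD2 was the highest in DMSO (247), at 1 μM (222) and at 5 μM (705). The assembly chaperone PSMG4 was the lowest member with at least 1 CPM in the 3 knockdown libraries and in DMSO, at 0.797 to 2.04 CPM per kb. PSMB9 was the lowest at 1 μM (0.593) and at 5 μM (0.12). Among the 7 constitutive beta subunits the ratio of the highest to the lowest level was 4.28 in scramble and 15.6 in DMSO. The median member stood at 26.7 CPM per kb in scramble and 17.1 in DMSO, above the median of all genes kept (4.33 and 3.44).

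Knockdown of CDK16 was compared with the scramble line to ask how gene expression differs when this kinase is low. Most members were slightly higher in both hairpin libraries, and none reached 2-fold in either. With CDK16-sh1 the median log2 change of the 46 members was 0.31, against -0.0018 over all genes, and 35 members were above 0. With CDK16-sh2 the median was 0.20 against 0.02, and 38 members were above 0. Of all 15295 genes, 7627 were above 0 with CDK16-sh1 and 7867 with CDK16-sh2. From a mean of 20 CPM on, 3752 and 4211 of 7184 genes were above 0, beside 32 and 37 of 43 members. Of all genes, 4.33% were at least 2-fold higher and 6.86% at least 2-fold lower with CDK16-sh1, and 2.2% and 7.62% with CDK16-sh2. Above a mean of 20 CPM, where 43 of the 46 members lie, these shares were smaller, at 2.41% and 4.62% with CDK16-sh1 and 1.39% and 4.69% with CDK16-sh2, so that few members past 2-fold would be found at the background share. The interquartile range was 0.43 for the members against 0.87 for all genes with CDK16-sh1 and 0.31 against 0.73 with CDK16-sh2. From 20 CPM on it was 0.48 against 0.78 and 0.28 against 0.62. At a limit of 1.5-fold, 7 members were higher and 1 lower with CDK16-sh1, and 5 were higher and 2 lower with CDK16-sh2. The members' shares higher, 15.2% and 10.9%, were near those of all genes (16.5% and 11.04%), and their shares lower, 2.17% and 4.35%, stood beside 18.8% and 16.8%. With CDK16-sh2 and scramble scaled by library totals instead of TMM, the member median became 0.01, the median of all genes moved by -0.19, and 23 of 46 members stayed above 0. Relative to all genes the members' median lay 0.18 higher under either scaling, and 0.10 higher when genes averaging under 20 CPM were left out.

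The constitutive beta ring was higher as a group in the knockdown, with 7 of 7 members above 0 in both hairpin libraries under TMM and 6 of 7 with CDK16-sh2 under library totals. Its median change was 0.48 with CDK16-sh1 and 0.30 with CDK16-sh2. PSMB3, a structural beta subunit, had 1052 counts in scramble, 2545 with CDK16-sh1 and 1189 with CDK16-sh2. It was the highest member with CDK16-sh1, just under the 2-fold limit (log2 change 1.00, interval 0.89 to 1.10), and lower with CDK16-sh2 (0.28). PSMB4, another structural subunit, had 71.3, 125 and 86.6 CPM in the scramble, CDK16-sh1 and CDK16-sh2 libraries. PSMB6, which carries the caspase-like site, had 73.4, 123 and 92.7 CPM. Both were nearer to scramble with CDK16-sh2 than with CDK16-sh1. PSMB7, which carries the trypsin-like site, went the other way, from 122 CPM in scramble to 141 and 193.

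Alpha subunits were less uniform. PSMA4 had 138 CPM in scramble, 173 with CDK16-sh1 and 231 with CDK16-sh2, a log2 change of 0.33 and 0.75. PSMA6 had 158, 187 and 228 CPM, so it too was highest with CDK16-sh2. PSMA2 differed in direction, at 49.4 CPM in scramble, 30.5 with CDK16-sh1 and 68.6 with CDK16-sh2. Its log2 change of -0.70 (interval -0.82 to -0.58) was the lowest of all members with CDK16-sh1. PSMA7 was lower in both libraries, at 496, 430 and 387 CPM, and with PSMG2 was 1 of 2 members below 0 with both hairpins. Under TMM, 29 members were above 0 with both, a count that was not set beside the share of all genes. Both comparisons use the same scramble library, and 15 members changed sign under library totals with CDK16-sh2.

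In the regulatory particle the ATPases had median changes of 0.25 with CDK16-sh1 and 0.34 with CDK16-sh2. PSMC1 had 192 CPM in scramble, 221 with CDK16-sh1 and 295 with CDK16-sh2. PSMC6 had 70.1, 55.0 and 83.8 CPM, lower with 1 hairpin and higher with the other. The lid divided evenly with CDK16-sh1, with 4 of 8 members above 0 and a median of -0.0033, whereas 8 of 8 were above 0 with CDK16-sh2 (median 0.21, and 4 of 8 under library totals). PSMD12, a lid scaffold subunit, was the second lowest member with CDK16-sh1, at 98.0 CPM in scramble, 71.5 with CDK16-sh1 and 104 with CDK16-sh2. The lid subunit PSMD8 had 191, 301 and 218 CPM. PSMD7, the inactive partner of PSMD14, had 229, 248 and 375 CPM, the third highest change with CDK16-sh2 (0.71). PSMD14 itself had 127, 108 and 148 CPM. PSMD2 was the member with the most counts and differed little with CDK16-sh1 (0.10), but was among the lowest with CDK16-sh2 (-0.39, from 1008 to 772 CPM). 

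**Figure D1:**
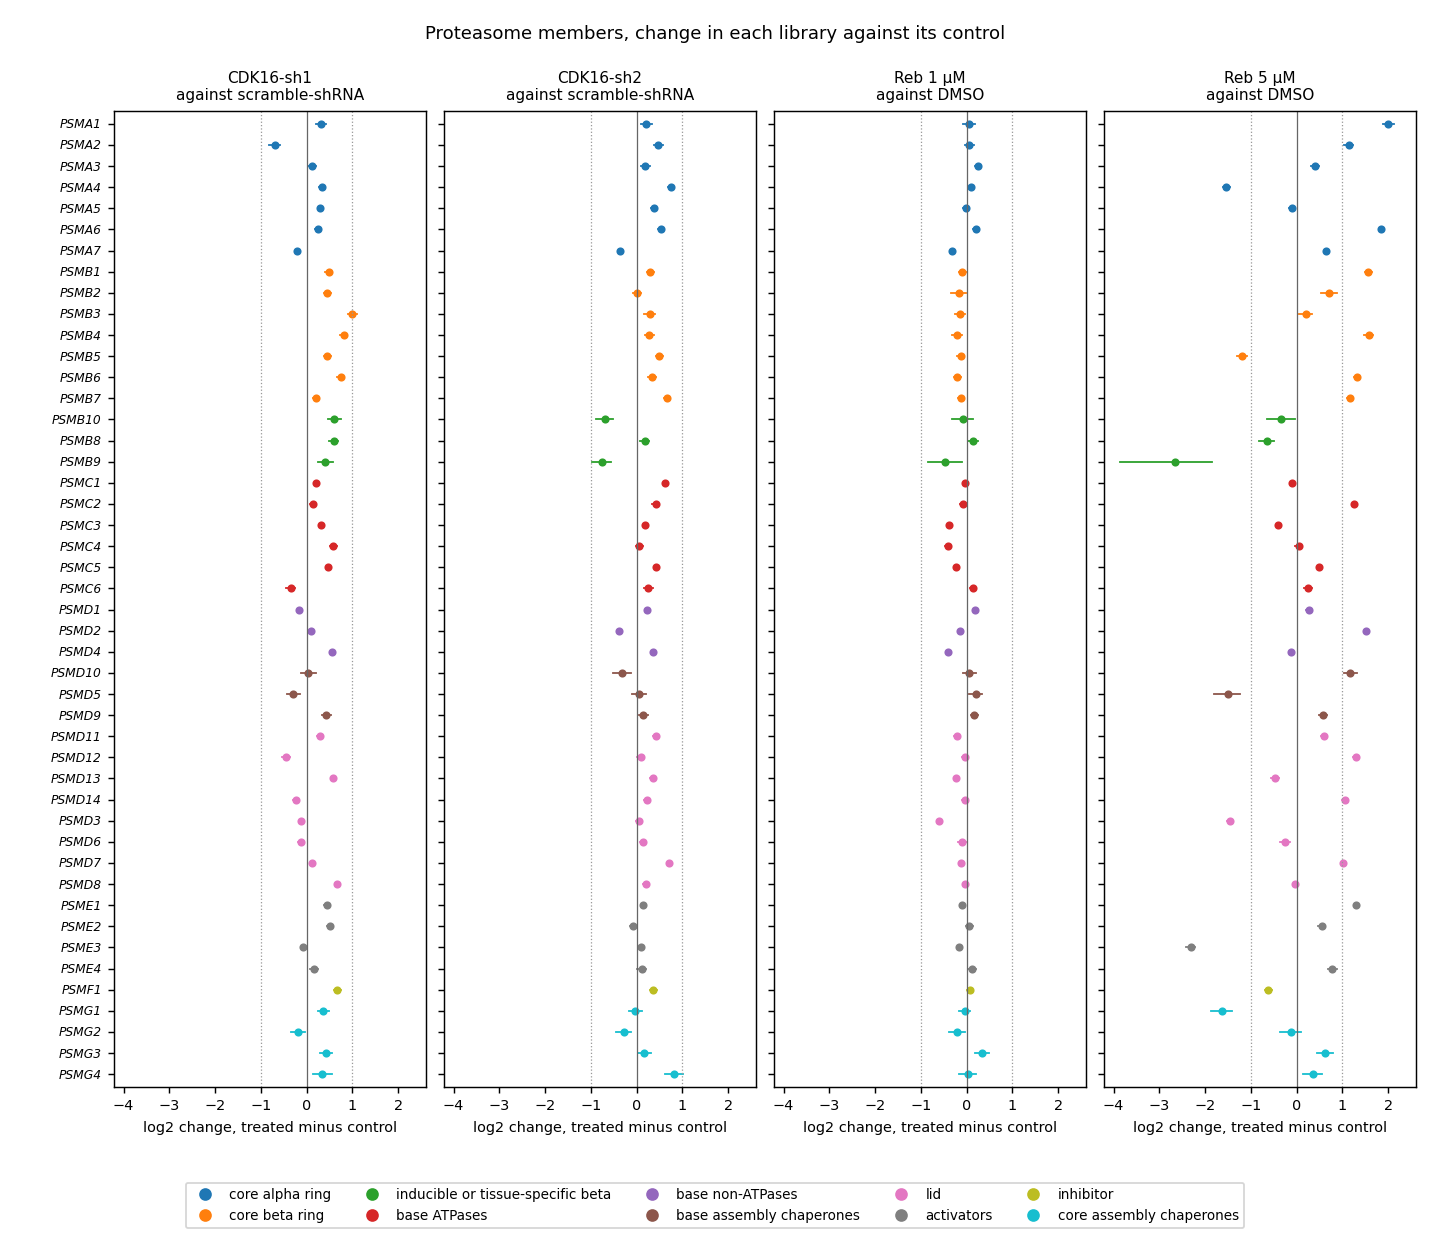
Log2 change of each of the 46 members (rows, coloured by role) in 4 panels, 1 for each treated library against its control, with points for the TMM-scaled change, bars for the 95% counting interval and dotted lines at 2-fold. Most points lie within 1 log2 unit in the first 3 panels, and the members spread from -2.65 to 2.00 at 5 μM.

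The caps and chaperones differed modestly in the knockdown. PSMF1, an inhibitor of the core particle, had 96.9 CPM in scramble, 154 with CDK16-sh1 and 125 with CDK16-sh2. PSME1 and PSME2 form the interferon-inducible cap. PSME1 had 202, 273 and 224 CPM, and PSME2 had 122, 174 and 116 CPM. PSME3, a nuclear cap, and PSME4, the large single-chain cap, stayed within 0.16 of 0 on the log2 scale with either hairpin. Of the core assembly chaperones, PSMG4 had the highest change of all members with CDK16-sh2, at 12.1 CPM in scramble, 15.4 with CDK16-sh1 and 21.3 with CDK16-sh2 (log2 change 0.34 and 0.81, the second with an interval of 0.61 to 1.01). Its partner PSMG3 had 30.6, 40.9 and 34.3 CPM. PSMG1 and PSMG2, which help to build the alpha ring, had changes of 0.36 and -0.19 with CDK16-sh1 and of -0.03 and -0.28 with CDK16-sh2. The base chaperones PSMD5, PSMD9 and PSMD10 had changes of -0.29, 0.43 and 0.03 with CDK16-sh1 and of 0.05, 0.15 and -0.32 with CDK16-sh2.

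Of the immunoproteasome subunits, PSMB9 and PSMB10 differed in direction between the hairpins. PSMB9 had 527 counts in scramble, 845 with CDK16-sh1 and 287 with CDK16-sh2 (log2 change 0.40 and -0.77). PSMB10 had 648, 1193 and 371 counts (0.60 and -0.70). PSMB8 had 1467, 2669 and 1535 counts (0.59 and 0.17). TAP1, the peptide transporter gene that lies next to PSMB9, had 1249, 2578 and 695 counts (0.77 and -0.74), and IRF1, an interferon-responsive transcription factor, had 1547, 2224 and 687 counts (0.25 and -1.06). PSMB9 and PSMB10 were thus above scramble with 1 hairpin and below it with the other, as TAP1 and IRF1 were. No test of the difference between hairpins could be run with 1 library each.

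At 1 μM of Reb the members lay close to DMSO. The median log2 change was -0.08, against 0.0016 over all genes, with an interquartile range of 0.26 against 0.45, and 0 of 46 members were past 2-fold in either direction, where the background was 1.28% higher and 1.92% lower. Above a mean of 20 CPM the background was 0.167% and 0.772%, and the interquartile range was 0.27 for 37 members against 0.34 for all genes of that level, so the gap to the background was much smaller there. All 7 constitutive beta subunits were a little below 0 (from -0.21 to -0.10), as were 8 of 8 lid members (from -0.61 to -0.03), of which 3 turned above 0 under library totals. The lid subunit PSMD3 was the lowest member, with 12694 counts in DMSO, 8426 at 1 μM and 2156 at 5 μM. The change at the lower dose was -0.61 (interval -0.65 to -0.57). The ATPases PSMC3 and PSMC4 and the ubiquitin receptor PSMD4 followed at -0.40, -0.41 and -0.40. PSMC3 had 341 CPM in DMSO and 260 at 1 μM, and PSMD4 had 176 and 133. PSMB9 was also among the 5 lowest, but its interval was wide (148 and 108 counts, log2 change -0.47, interval -0.85 to -0.11). The highest members were PSMG3 (0.34, from 10.9 to 13.8 CPM), PSMA3 (0.24), PSMD5 (0.20), PSMA6 (0.19) and PSMD1 (0.18).

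At 5 μM the members parted in both directions. Of the 46 members, 14 (30.4%) were at least 2-fold higher and 7 (15.2%) at least 2-fold lower, against 23.6% and 27.2% of all genes. The median change was 0.37 against -0.07 over all genes, and the interquartile range was 1.43 against 2.03. Above a mean of 20 CPM under the same TMM factors, 35.1% of 37 members were higher and 10.8% lower. Of all genes of that level, 27.9% were higher and 21.2% lower. The medians there were 0.48 for the members and 0.18 for all genes, a smaller gap. These counts depended on the scaling: with library totals as the scale, the all-gene median shifted by -0.68, the member median became -0.31, 2 members stayed at least 2-fold higher (PSMA1 and PSMA6), and 12 were at least 2-fold lower, including the same 7. Of all genes, 11.7% were then higher and 43.4% lower, so the members' share higher was above the background under TMM and below it under library totals. The difference between the member median and the median of all genes was 0.44 under both. Directions at 5 μM are therefore given under TMM and hold relative to all genes, and 12 members change sign under library totals.

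**Figure D2:**
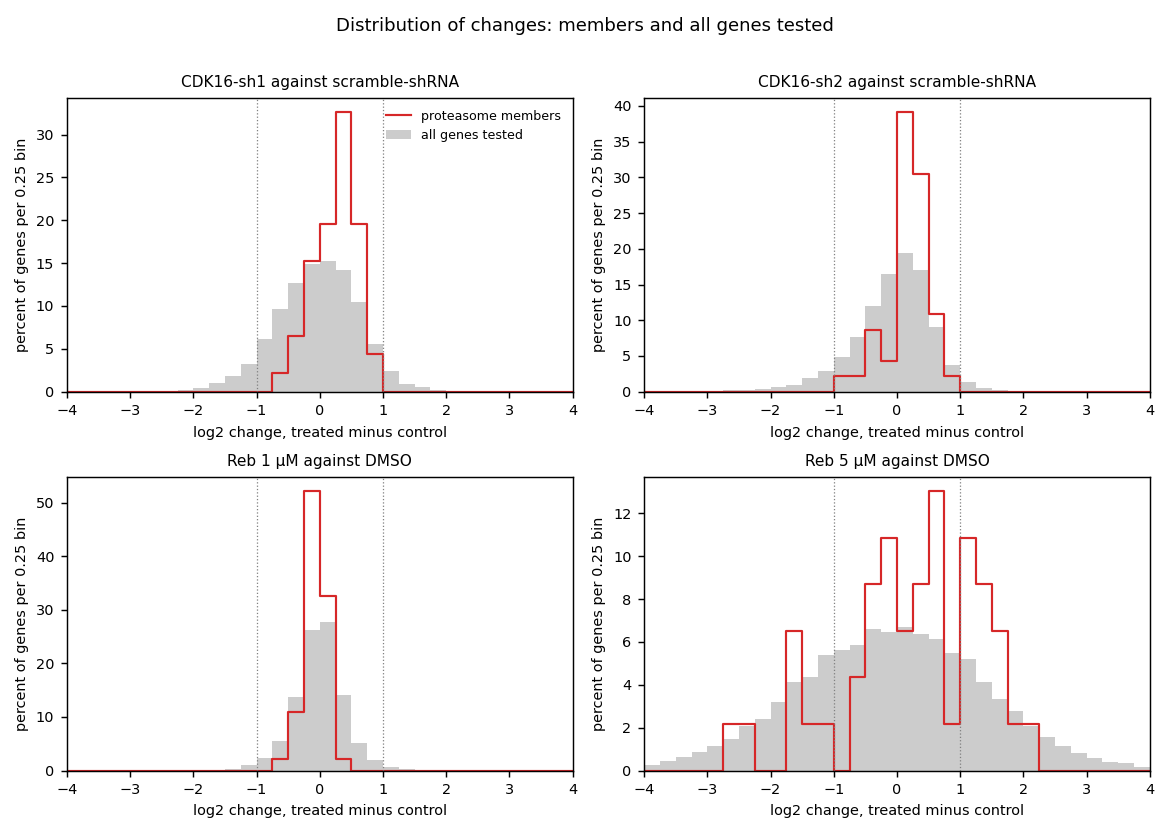
Percent of genes in bins of 0.25 log2 units of the change against the control, for all genes tested (grey bars) and the 46 members (red line), 1 panel for each treated library, with dotted lines at 2-fold. The members sit to the right of all genes in both hairpin panels and are spread over both sides at 5 μM.

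In the alpha ring at 5 μM the members lay on both extremes. PSMA1 had 931 counts in DMSO, 986 at 1 μM and 1733 at 5 μM, which is 16.0, 16.6 and 64.1 CPM. Its log2 change at 5 μM, 2.00 (interval 1.89 to 2.12), was the highest of all members. PSMA1 spans chr11:14504874-14643635 (GRCh38), and 814 bases of its exons are shared with another row on the same strand, so its counts are less certain. PSMA6 had 115, 131 and 414 CPM (1.85 at 5 μM), and PSMA2 had 30.7, 32.1 and 67.7 CPM (1.14). PSMA4 went the opposite way, with 12710 counts in DMSO, 13769 at 1 μM and 2037 at 5 μM, or 218, 232 and 75.3 CPM (-1.53, interval -1.60 to -1.47). The alpha subunits PSMA3, PSMA5 and PSMA7 stayed within 2-fold, at 0.40, -0.11 and 0.63. Per length, PSMA4 stood above PSMA1 in DMSO (31.2 against 4.84 CPM per kb) and below it at 5 μM (10.8 against 19.4 CPM per kb).

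The beta ring was the role group with the highest median at 5 μM (1.17, and 0.48 under library totals), with 6 of 7 members above 0. PSMB4 had 24.5 CPM in DMSO, 21.2 at 1 μM and 73.0 at 5 μM (1.57). PSMB1 had 48.4, 45.2 and 143 CPM (1.56). The catalytic subunits differed in direction. PSMB6 had 53.2, 46.1 and 133 CPM (1.32) and PSMB7 had 64.9, 59.5 and 146 CPM (1.17), whereas PSMB5, which carries the chymotrypsin-like site, had 60.4, 55.1 and 26.5 CPM (-1.19, interval -1.31 to -1.08). In DMSO the CPM values of PSMB5, PSMB6 and PSMB7 lay between 53.2 and 64.9. At 5 μM PSMB5 stood well below the other two. PSMB2 and PSMB3 had changes of 0.70 and 0.20.

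In the regulatory particle, PSMD2 had 78595 counts in DMSO, 71785 at 1 μM and 103962 at 5 μM, or 1348, 1211 and 3843 CPM (1.51). By counts it ranked 56th among all genes in DMSO and 33rd at 5 μM. PSMD12 had 80.7, 78.7 and 197 CPM (1.29). The deubiquitinase PSMD14 had 67.6, 66.2 and 141 CPM (1.06) and its partner PSMD7 had 289, 264 and 585 CPM (1.02). PSMD14 and PSMD7, at 2.09-fold and 2.02-fold, were the members just inside the 2-fold limit, and PSME4, at 1.71-fold, was the nearest outside it. Of the ATPases only PSMC2 passed 2-fold, with 68.2, 64.9 and 163 CPM (1.26). The other ATPases lay between -0.40 (PSMC3) and 0.48 (PSMC5). PSMD3, already low at 1 μM, had 218, 142 and 79.7 CPM, a change of -1.45 at 5 μM. The remaining base and lid members (PSMD1, PSMD4, PSMD6, PSMD8, PSMD11 and PSMD13) lay between -0.47 and 0.59.

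The caps differed in direction. PSME3, a nuclear cap, had 9786 counts in DMSO, 8864 at 1 μM and 911 at 5 μM, or 168, 150 and 33.7 CPM. Its change at 5 μM was -2.32 (interval -2.42 to -2.22), the second lowest of all members. PSME1 had 142, 132 and 346 CPM (1.29), PSME2 had 49.0, 51.1 and 71.6 CPM (0.54), and PSME4 had 28.9, 31.3 and 49.6 CPM (0.78). PSME3 was the only cap below 0 at 5 μM under TMM, while PSME2 was below 0 as well under library totals. PSME3 as a percent of PSME1, per length, was 40.9% in DMSO, 39.3% at 1 μM and 3.36% at 5 μM, and 40.5%, 28.6% and 39.1% in scramble, CDK16-sh1 and CDK16-sh2. The inhibitor PSMF1 had 85.6, 89.4 and 55.9 CPM (-0.62).

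Among the chaperones at 5 μM, PSMG1 had 1170 counts in DMSO, 1155 at 1 μM and 174 at 5 μM, or 20.1, 19.5 and 6.43 CPM (-1.63, interval -1.88 to -1.41). PSMG2, with which PSMG1 forms a dimer, was at 9.81, 8.47 and 8.95 CPM (-0.13). PSMG3 and PSMG4, the other dimer, had changes of 0.62 and 0.35. The base chaperones also parted: PSMD5 had 734, 857 and 119 counts (-1.51, interval -1.81 to -1.24), PSMD10 had 787, 835 and 824 counts (1.17), and PSMD9 had a change of 0.58. PSMG1 and PSMD5 were lower in the raw counts too. The PSMD10 count was nearly flat, and its CPM was higher through library size and TMM, 13.5 in DMSO against 30.5 (0.48 under library totals). PSMD7 and PSMD14, at least 2-fold higher by CPM, had fewer counts at 5 μM (15829 and 3814) than in DMSO (16850 and 3942). POMP, the maturation factor of the beta ring, had 44.7, 46.2 and 65.4 CPM (0.55).

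**Figure D3:**
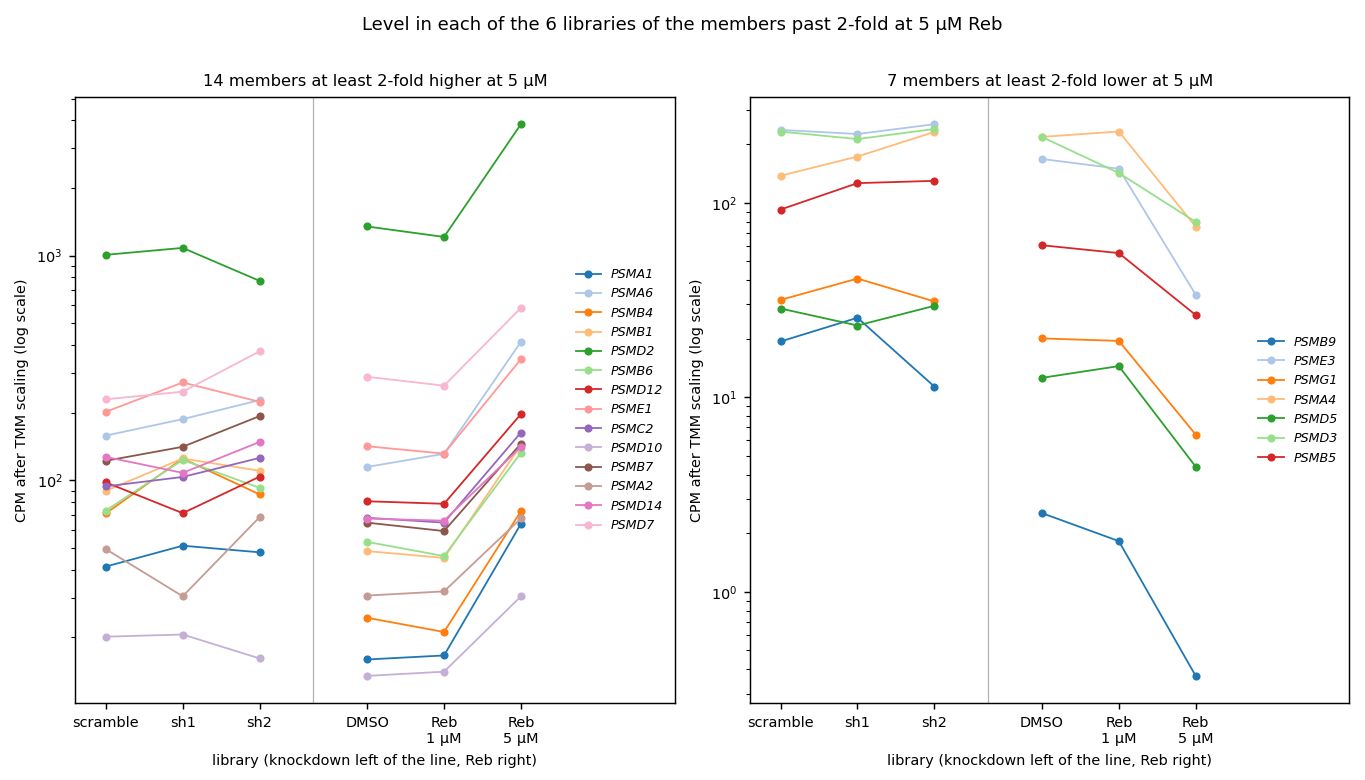
CPM after TMM scaling (log axis) in each of the 6 libraries for the 14 members at least 2-fold higher (left) and the 7 at least 2-fold lower (right) at 5 μM, with lines joining the libraries of 1 experiment only to guide the eye. Levels at 1 μM stay near DMSO for nearly all of them, and the step lies between 1 μM and 5 μM.

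The immunoproteasome subunits were all below 0 at 5 μM. PSMB9 had 148 counts in DMSO, 108 at 1 μM and 10 at 5 μM, or 2.54, 1.82 and 0.370 CPM. Its log2 change of -2.65 was the lowest of all members, with a wide interval of -3.87 to -1.86. PSMB10 had 316, 302 and 116 counts (-0.33 at 5 μM) and PSMB8 had 1240, 1380 and 365 counts (-0.65). Per length, PSMB9 was 2.25% of PSMB6 in DMSO, 1.86% at 1 μM and 0.131% at 5 μM, while it was 12.4% in scramble, 9.79% with CDK16-sh1 and 5.77% with CDK16-sh2. PSMB10 was 8.06%, 8.26% and 2.84% of PSMB7 in the Reb libraries and 18.8%, 24.7% and 7.33% in the knockdown libraries. PSMB8 was 31.0%, 37.2% and 44.9% of PSMB5, so this ratio was higher at 5 μM although PSMB8 was lower, since PSMB5 was lower by more. The log2 ratio of PSMB8 to PSMB5 differed from DMSO by 0.54 at 5 μM (interval 0.33 to 0.74), that of PSMB9 to PSMB6 by -4.10 (-5.02 to -3.17), and that of PSMB10 to PSMB7 by -1.51 (-1.82 to -1.19). These ratios compare genes within a library and do not depend on the scaling between libraries.

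**Figure D4:**
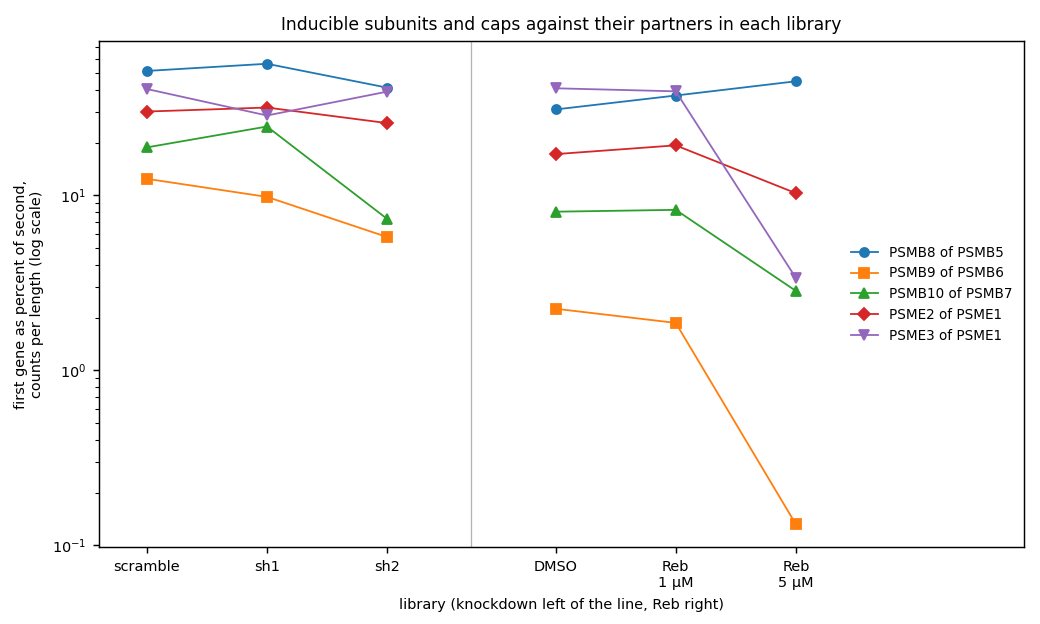
Level per length of an inducible subunit or cap as a percent of its partner (log axis) in each of the 6 libraries, knockdown libraries to the left of the line. PSMB9 of PSMB6 ends at 0.131% and PSME3 of PSME1 at 3.36% at 5 μM, while PSMB8 of PSMB5 stays between 31.0% and 56.5% in all libraries.

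Taking the treated libraries of an experiment as 1 group of 2 against 1 control allowed a test, with 1 residual degree of freedom. In edgeR's quasi-likelihood test, 0 of 46 members were called for both hairpins against scramble at a Benjamini-Hochberg adjusted p of 0.05 and 2-fold, and the background was 0% higher and 0% lower. The largest log2 change of a member in this fit was 0.68 (PSMB3). All 46 members shared the same adjusted p, so no member can be ranked by it. DESeq2 also called 0 members and 0 genes, with 233 genes under 0.05 unadjusted. For both doses against DMSO, 0 members were called by either tool, where edgeR called 0.0703% of all genes higher and 0.00639% lower. With the dose as a linear term on a log2 scale instead, 13.3% of all genes were called higher and 11.1% lower, and 6 of 46 members were called. PSMA1, PSMA6, PSMB4 and PSMB1 had positive slopes in this edgeR fit. At 1 μM their log2 changes were 0.06, 0.19, -0.21 and -0.10, against 2.00, 1.85, 1.57 and 1.56 at 5 μM. PSME3 and PSMB9 had negative slopes, with changes of -0.17 and -0.47 at 1 μM and of -2.32 and -2.65 at 5 μM. The slopes thus followed the single 5 μM library, and PSMB4 and PSMB1 did not rise at 1 μM. A fit of this kind on 3 libraries leaves the 1 μM library as the only check on the spread, and 4 members called higher and 2 lower were smaller shares of the 46 than the background.

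Other genes of the pathway were read from lists, with changes under TMM. Under library totals the median of all genes at 5 μM moved by -0.68. The 2-fold limits of list genes, those of other complexes included, were not repeated under that scaling. Of 13 proteasome partners, 6 were at least 2-fold higher and 1 lower at 5 μM, where 23.6% of all genes were higher and 27.2% lower, with a median change of 0.89. ADRM1, the ubiquitin receptor that binds PSMD1, had 11593 counts in DMSO, 9701 at 1 μM and 30154 at 5 μM (log2 change 2.49 at 5 μM), and was also higher in the knockdown, at 188 CPM in scramble, 413 with CDK16-sh1 (1.14) and 296 with CDK16-sh2 (0.66). SHFM1 (SEM1), the smallest lid subunit, had 141, 138 and 562 CPM in the Reb libraries (2.00) and was 2-fold higher with CDK16-sh2 (1.00). TXNL1, a thioredoxin of the proteasome (1.76), FBXO7, which binds PSMF1 (2.13), ZFAND2A, a stress-induced proteasome binder (2.03), and KIAA0368 (ECPAS), an adaptor (1.27), were the others that were higher, and PAAF1, a negative regulator of assembly, was lower (-1.03).

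Among 7 genes that control subunit transcription, NFE2L1 had 30626 counts in DMSO, 29786 at 1 μM and 4820 at 5 μM (-0.06 and -1.56). With the hairpins its changes were -0.27 (CDK16-sh1) and 0.42 (CDK16-sh2). NFE2L2, the related stress factor, had 2633, 2583 and 9789 counts (3.00 at 5 μM), and the small MAF partners MAFG and MAFK were higher (2.23 and 1.90). MAFF was the only gene of the pathway and complex lists past 2-fold at 1 μM, with 4585 counts in DMSO and 2197 at 1 μM (-1.08). Among the ubiquitin and shuttle genes, RPS27A, RAD23B, UBQLN1 and UBQLN2 were at least 2-fold higher at 5 μM (1.33, 1.52, 1.98 and 1.04) and UBQLN4 was lower (-1.89). RPS27A was lower with CDK16-sh2 (-1.19).

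Among the antigen processing genes, the transcriptional regulators IRF1 (-1.70), IRF9 (-1.92) and NLRC5 (-2.28) and the trimming peptidase ERAP2 (-1.01) were at least 2-fold lower at 5 μM. B2M and PDIA3 were higher (2.09 and 1.80). TAP1 had 1349 counts in DMSO, 1459 at 1 μM and 406 at 5 μM (0.09 and -0.62). The median of the list was -0.65 at 5 μM, beside -0.65 for the 3 immunoproteasome subunits, and with CDK16-sh2 it was -0.43, with 3 of 12 genes above 0.

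Subunit genes of other complexes were examined beside the members. Of the 9 subunits of the COP9 signalosome, a lid-like complex that removes NEDD8, 3 were at least 2-fold higher and 0 lower at 5 μM, with a median of 0.61. COPS7B, COPS2 and COPS8 were those (2.81, 2.6 and 1.98), and COPS8 was lower with CDK16-sh2 (-1.42). Of the 13 subunits of eIF3, a translation initiation factor, EIF3H, EIF3E and EIF3C were at least 2-fold higher (2.49, 1.77 and 1.53), with a median of 0.27. The CCT chaperonin, a complex unrelated in function, had a median of 0.04, with TCP1 and CCT7 higher (1.43 and 1.21) among 8 genes. The 3 of 13 eIF3 and 2 of 8 CCT genes at least 2-fold higher are shares near the 23.6% of all genes. In the knockdown, eIF3 had medians of 0.47 and 0.46 (CDK16-sh1 and CDK16-sh2), above those of the proteasome members. No test of the difference between these complexes and the proteasome was run.

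Promoters were searched for letters that textbook regulators of these genes recognise. Sequences came from RefSeq on GRCh38.p14, from 250 bases before to 50 after each annotated start, and 42 of the 48 members matched, with 51 promoters. The core of the antioxidant response element, TGACNNNGC on either strand, to which NFE2L1 and NFE2L2 bind with small MAF partners, stood in 15 of the 51 member promoters (29.4%) and in 13.3% of all 35116 promoters. By change at 5 μM, 5 of 7 members at least 2-fold lower held it, 2 of 11 with a sequence among those at least 2-fold higher, and 8 of 22 in between. The windows below are those of the members past 2-fold, 10 bases on each side, with the element in capitals, since they are the sequences in which both directions can be read beside each other. The first 5 are of members that were lower and the last 2 of members that were higher.
PSMA4, chr15:78540650-78540678, plus strand: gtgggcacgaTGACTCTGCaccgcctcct
PSMB9, chr6:32854034-32854062, plus strand: gggcggggctGCCTCGTCActtgtctcgg
PSMD3, chr17:39980760-39980788, plus strand: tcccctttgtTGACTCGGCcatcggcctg
PSMD5, chr9:120843038-120843066, minus strand: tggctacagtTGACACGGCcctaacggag
PSMG1, chr21:39183616-39183644, minus strand: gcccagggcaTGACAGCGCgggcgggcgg
PSMD12, chr17:67366724-67366752, minus strand: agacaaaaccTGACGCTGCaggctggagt
PSME1, chr14:24136098-24136126, plus strand: atggcagggcTGACCCCGCctcctccatc
In PSMB9 the element lies on the opposite strand, and PSMD3 holds a second match that is not shown. None of these windows holds the related AP-1 site TGACTCA. A match is a description of letters and not of binding.

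The other letters searched were CCAAT, TTCNNNGAA (the gamma-activated sequence), the core of the interferon-stimulated response element and CCGGAAG (an ETS site), each on both strands. The classes below hold only members with a sequence, which PSMB1, PSMB6 and PSMB7, also at least 2-fold higher at 5 μM, lacked. CCAAT stood in 39.2% of member promoters and 34.6% of all. By class it stood in 5 of the 11 members at least 2-fold higher at 5 μM, 6 of the 7 lower and 8 of the 22 between. The gamma-activated sequence stood in 15.7% and 7.66%, in 2 of the 11 higher, 3 of the 7 lower and 2 of the 22 between. The interferon-stimulated response element stood in 13.7% and 3.57%, with PSMB8, PSMB10, PSME1 and PSME2 among its 7 members, and in 2, 1 and 4 members of these classes. The ETS site stood in 29.4% and 10.3%. It was in 5 of the 11 members with a sequence at least 2-fold higher at 5 μM, in 0 of the 7 lower and in 9 of the 22 between. The upstream 250 bases are given below for PSMA1, the highest member at 5 μM, and for PSMB9 and PSME3, the lowest, with every searched element in capitals.
PSMA1, chr11:14520387-14520636, minus strand: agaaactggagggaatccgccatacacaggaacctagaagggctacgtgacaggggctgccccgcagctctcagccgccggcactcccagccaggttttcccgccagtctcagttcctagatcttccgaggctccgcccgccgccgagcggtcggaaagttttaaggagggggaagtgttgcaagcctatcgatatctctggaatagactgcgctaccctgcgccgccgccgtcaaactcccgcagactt
PSMB9, chr6:32853942-32854191, plus strand: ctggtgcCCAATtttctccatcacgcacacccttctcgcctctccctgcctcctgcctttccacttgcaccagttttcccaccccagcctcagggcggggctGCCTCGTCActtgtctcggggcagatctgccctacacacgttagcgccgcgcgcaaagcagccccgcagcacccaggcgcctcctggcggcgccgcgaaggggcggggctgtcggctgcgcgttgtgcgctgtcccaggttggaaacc
PSME3, chr17:42833147-42833396, plus strand: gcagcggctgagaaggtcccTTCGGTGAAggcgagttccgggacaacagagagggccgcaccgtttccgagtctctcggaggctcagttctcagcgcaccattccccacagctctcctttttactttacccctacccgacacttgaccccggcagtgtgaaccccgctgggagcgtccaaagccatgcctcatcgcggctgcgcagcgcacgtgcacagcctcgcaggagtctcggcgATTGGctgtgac
The PSMA1 run holds none of the 5 elements, the PSMB9 run holds a CCAAT box and the antioxidant element shown above, and the PSME3 run holds a gamma-activated sequence and a CCAAT box on the opposite strand. GC content of the 3 runs was 60.8%, 67.2% and 62.8%.

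The changes moved with base composition in part. Over genes with a known GC content (84.6% of genes tested in the knockdown and 84.3% in the Reb experiment), the log2 change correlated with GC at r = 0.48 with CDK16-sh1, 0.13 with CDK16-sh2, -0.30 at 1 μM and -0.22 at 5 μM. Over the 46 members r was 0.50, -0.23, -0.37 and -0.17. These are correlations across genes of the same libraries. With trends on GC content and gene length removed, the member medians were 0.35, 0.29, -0.06 and 0.26 in that order, and 7 members instead of 14 were at least 2-fold higher at 5 μM, a share below the 21.4% of all genes in that setting, whereas the 14 were above theirs. The Reb 5 μM and CDK16-sh2 libraries had the largest mitochondrial shares, and the part of that share, of GC content and of scaling in the members' changes was not tested.

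**Figure D5:**
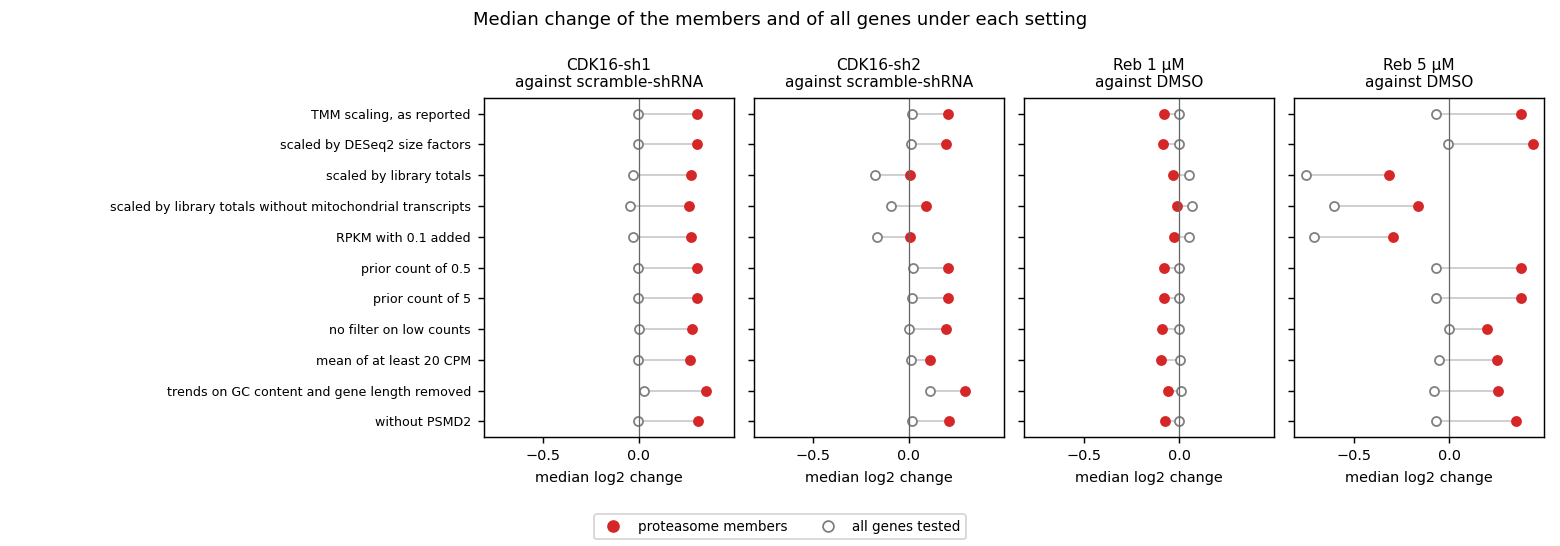
Median log2 change of the members (red) and of all genes tested (open grey) under each way of scaling, filtering or correcting (rows), 1 panel for each treated library. The distance between the symbols is nearly the same under every scaling, while both shift to the left under library totals with CDK16-sh2 and at 5 μM.

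Exons of 23 members overlapped exons of other rows of the annotation, on the same strand for 7 members and on the opposite strand for 18. The strand setting of the counting was not given in the sources used here, so counts in the shared stretches are uncertain. Of the members that were past 2-fold at 5 μM, PSMA1, PSMA2, PSMA6 and PSMB9 shared exon bases with a row on the same strand. PSMA2 (1043 and 24 bases), PSMD7 (842), PSME3 (300), PSMD14 (159) and PSME1 (9) shared them with rows on the opposite strand. PSMB9 shared 174 bases with PSMB8-AS1, and PSMG4 shared 1388 bases with SLC22A23 on the opposite strand.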

How the data were processed

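RNA-seq of 6 MDA-MB-231 libraries was analysed, 3 per experiment. The authors deposited raw counts per gene together with RPKM values. Per the labels and the submitters' processing notes, reads were trimmed with Trimmomatic and counted with featureCounts of Subread 1.5.1 on GRCh38. The aligner, the annotation release and the strand setting are not given in the sources used here. The deposited RPKM could be recomputed from the counts and exon lengths within a relative 5.5e-07 and served as an alternative only.

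A gene was kept where its mean over the 3 libraries reached 1 CPM. Log2 changes were taken from counts scaled by TMM (edgeR 4.0.16, R 4.3.3) with a prior count of 2, and intervals are Clopper-Pearson at 95%. Treated libraries as 1 group of 2 were tested with edgeR's quasi-likelihood fit across all genes with Benjamini-Hochberg adjustment, with DESeq2 1.42.0 as an alternative, and the fits were first tested on simulated data. Intervals and the limit of 3 counts behind a count of 0 cover counting error only. Library totals were 25838443 to 50303269 counts.

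The members, the gene lists and the motifs were chosen with earlier results of these data known. Members are named when among the 5 highest or 5 lowest in a comparison, when they are catalytic or inducible beta subunits, caps, inhibitor or chaperones, when set aside as low, or when past 2-fold or called; list genes when past 2-fold, and TAP1, NFE2L1 and POMP throughout. Promoters came from RefSeq (GRCh38.p14). A few list genes that meet this rule are not reported here.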

Additional observations from a re-analysis of the deposited data

How the results depend on the processing

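Each group held 1 library, so neither leaving out a replicate nor a test between 2 libraries could be had. No paired analysis was possible because each group has a single library and no replicate numbers to pair. Scaling had the most effect. At 5 μM the member median was -0.31 by library totals, -0.16 by totals without mitochondrial transcripts and -0.30 on RPKM with 0.1 added, below 0 and thus reversed against 0.37 under TMM, since the median of all genes moved by -0.68 under library totals. It was 0.20 without a filter, 0.25 at a mean of at least 20 CPM and 0.26 with trends on GC content and gene length removed. Members at least 2-fold higher at 5 μM numbered 2 by library totals, 4 without mitochondrial transcripts, 2 on RPKM, 9 without a filter, 9 at 20 CPM, 7 with the trends removed and 1 at 4-fold. All-gene shares were 11.7%, 13.7%, 11.1%, 23.6%, 21.7% and 21.4% in the first 6 of these settings. The members' share was below that of all genes in 5 of them, and above it at 20 CPM (9 of 37 members, with TMM factors taken anew from these genes) as under TMM. Those at least 2-fold lower numbered 12 by library totals, 11 on RPKM, 4 at 20 CPM and 2 at 4-fold. Of all genes, 43.4% were lower by library totals, 41.5% on RPKM and 26.2% at 20 CPM, each a larger share than that of the members. The counts at 4-fold were not set beside a share of all genes. With CDK16-sh2 the median was 0.0065 by library totals, 0.0065 on RPKM, 0.090 without mitochondrial transcripts, 0.11 at 20 CPM and 0.29 with the trends removed. At 1 μM it was -0.012 without mitochondrial transcripts. At 1.5-fold, 7 members were higher and 1 lower with CDK16-sh1, 5 and 2 with CDK16-sh2, and 1 lower at 1 μM. Of all genes, 16.5% were higher and 18.8% lower with CDK16-sh1, 11.04% and 16.8% with CDK16-sh2, and 7.19% lower at 1 μM. Without a filter 1 member was at least 2-fold lower at 1 μM (PSMB11, 4 counts in DMSO and 0 at 1 μM). Of all genes, 6.64% were lower in that setting. The dose as a linear term called 6 members, against 0 for both doses as 1 group. Leaving out PSMD2, an alternative chosen after seeing the data, gave a median of 0.35 at 5 μM. DESeq2 size factors and prior counts of 0.5 and 5 kept every member past 2-fold at 5 μM on the same side of the threshold.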

Other observations

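Antisense and pseudogene rows named after members were counted apart from them. PSMB8-AS1, antisense to PSMB8, had 301 counts in scramble, 736 with CDK16-sh1 and 180 with CDK16-sh2, and 150, 232 and 46 counts in DMSO, Reb 1 μM and Reb 5 μM. Its log2 changes were 1.01, -0.63, 0.60 and -0.59 in the order CDK16-sh1, CDK16-sh2, 1 μM and 5 μM, so it lay above scramble with 1 hairpin and below it with the other, as PSMB9 did. PSMD5-AS1 had 65, 30 and 59 counts in the knockdown libraries and 165, 72 and 18 in the Reb libraries, with changes of -1.19 at 1 μM and -2.02 at 5 μM. PSMA3-AS1 had 1819, 2161 and 1646 counts in the Reb libraries, a change of 0.96 at 5 μM. The strand setting of the counting is not given in the sources used here, so reads of a member and of its antisense row may not be told apart.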
